A study of Mus musculus with 7 samples.

Results

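Spn, Nrros, Apbb1ip, Cd24a and Ier2 are genes of blood cell surface, adhesion and early growth response that had less RNA in fetal liver erythroblasts than in erythroid progenitors. They were picked by name from the exon table because their values were lower in erythroblasts, so their own difference between the stages is a description and carries no test. The choice had no threshold of size. They are 5 of the 5194 genes that the table gives. Erythroblasts (Ter119+CD71+) and progenitors (Ter119-CD71- and Ter119-CD71+ cells together) were sorted from fetal livers of mice at embryonic stage E13.5. Ter119 appears on the surface as red cells mature, and CD71 takes up iron-loaded transferrin. All mice of both stages carried Klf1, the gene of the erythroid transcription factor EKLF, with a hemagglutinin tag, and the cells were primary and untreated. RNA came from 2 erythroblast libraries and 1 progenitor library. EKLF was mapped with an antibody against the tag by chromatin immunoprecipitation sequencing (ChIP-seq), in 1 sample a stage with an input as background. The peak lists are named as pooled, so a sample may stand for more than 1 library. The deposited values hold 1 expression column and 1 peak list a stage, so no difference below has a replicate check.

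Red cell precursors arise from progenitors that still carry surface proteins of other blood lineages, and much of that programme is shut down as the cells fill with hemoglobin. Spn encodes CD43 (leukosialin), a long sialylated mucin of leukocytes that keeps cells apart and binds the ezrin, radixin and moesin linkers of the cell cortex. Apbb1ip encodes RIAM, an effector of the GTPase Rap1 that brings talin to integrins and so switches on adhesion. Nrros encodes LRRC33, a leucine-rich repeat protein of myeloid cells that holds latent TGF-beta at the surface and limits the oxidative burst of phagocytes. Cd24a encodes the heat stable antigen CD24, a short sugar-rich protein on a lipid anchor that mouse red cell precursors and immature lymphocytes carry. Ier2 is an immediate early gene, one of those transcribed within minutes of a growth signal without new protein synthesis.

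The bases before the start sites of Spn, Nrros and Apbb1ip are shown because these genes are among those that fell and the factor mapped here binds CACC-type sequences. Each is the stretch of 250 bases before the start site in the direction of the gene, from RefSeq on build GRCm38.p6. The first entry of each gene was taken, and any other start site was not analysed. Capitals mark CCNCNCCC, an EKLF-like motif, on either strand. The stretches are chr7:127137824-127138073 on the minus strand for Spn, chr16:32165595-32165844 on the minus strand for Nrros and chr2:22774077-22774326 on the plus strand for Apbb1ip.
Spn: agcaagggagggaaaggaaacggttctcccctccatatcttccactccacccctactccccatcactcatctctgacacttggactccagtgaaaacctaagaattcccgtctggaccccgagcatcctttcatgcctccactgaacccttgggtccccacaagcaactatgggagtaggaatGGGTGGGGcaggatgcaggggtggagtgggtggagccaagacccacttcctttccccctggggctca
Nrros: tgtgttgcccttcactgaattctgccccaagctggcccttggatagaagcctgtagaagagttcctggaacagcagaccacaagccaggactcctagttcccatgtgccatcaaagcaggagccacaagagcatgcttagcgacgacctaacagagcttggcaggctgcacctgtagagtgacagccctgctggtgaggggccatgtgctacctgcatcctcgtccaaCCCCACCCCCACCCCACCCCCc
Apbb1ip: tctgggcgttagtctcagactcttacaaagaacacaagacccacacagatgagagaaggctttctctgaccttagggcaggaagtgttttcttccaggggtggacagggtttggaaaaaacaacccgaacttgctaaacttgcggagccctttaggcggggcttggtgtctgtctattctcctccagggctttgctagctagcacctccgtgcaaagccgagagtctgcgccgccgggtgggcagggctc
Spn held 1 match, on the opposite strand, that began 67 bases before the start site (position -67). Nrros held 5 matches that overlapped each other in 1 run of C and A, the first from position -22 and the last from position -9. Apbb1ip held no match in these letters. Of 32851 promoters that RefSeq lists there, 45.9% held the motif in the same stretch, so a match is common. None of the 3 stretches held the GATA motif AGATAA (9.99% of all promoters), the core of the cyclic-AMP element TGACG (17.8%) or the CArG box that serum response factor binds (1.47%). These letters describe the sequences and do not mark bound sites. Their positions are on another build than the peaks and were not set against them. Promoters of Cd24a and Ier2 were not analysed here.

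By a rule of at least 2-fold, 4 of the 5 genes fell, and Cd24a had values just short of it. Over all 5194 genes 13.2% fell and 15.3% rose, and since the members were picked for low erythroblast values nothing is read from their count. Values are the authors' exon coverage, summed over the listed exons of 1 transcript, and a level is set only against that of the same gene in the other stage. Differences are log2((erythroblasts + 1) / (progenitors + 1)), which understates the change of a gene with low values. All genes had a median difference of 0.03. The table lists an exon only at 0.8 or more in both stages, so genes lost below that are in none of these shares. In these bulk samples fewer cells that carry a transcript and less RNA per cell cannot be told apart.

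Spn, the mucin gene, had a coverage of 6.70 in erythroblasts, against 196 in progenitors. It was 29.2-fold lower, a log2 difference of -4.68, and ranked 4 from the lowest of all genes in the table. A single coding exon was listed, on chromosome 7 with its start at 134279660 (build mm9, as for all exon and peak positions below), and it appeared under 2 transcripts with the same value. Erythroblast coverage was 8.38 times the lowest value that the table lists for an exon, so the transcript was lower but not absent.

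Ier2, the immediate early gene, had a coverage of 1.22 in erythroblasts, against 33.3 in progenitors. It was 27.4-fold lower, a log2 difference of -3.95, and ranked 5. Its only listed exon starts at 87185985 on chromosome 8. The erythroblast value was 1.52 times the lowest listed value, and because the table lists an exon only at 0.8 or more in both stages, the largest fall it could have shown for this gene was 41.7-fold. If 1 step of the values is 1 base, the erythroblast value stands for 51.3 reads of 51 bases, the fewest among the 5 genes.

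Nrros had a coverage of 2.68 in erythroblasts, against 46.6 in progenitors, which is 17.4-fold lower with a log2 difference of -3.69 and rank 7. Its listed exon starts at 32143118 on chromosome 16. On the same reading its erythroblast value stands for 113 reads and its progenitor value for 1678.

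Apbb1ip, the talin recruiter, had a coverage of 7.36 in erythroblasts, against 98.2 in progenitors. It was 13.3-fold lower, a log2 difference of -3.57, and ranked 8. Of its coding exons 2 were listed, numbers 4 and 14 when counted from 1, and they lie 51.5 kb apart on chromosome 2, with starts at 22678815 and 22730320. Exon 4 had 0.97 in erythroblasts, against 12.99 in progenitors, and exon 14 had 6.40 in erythroblasts, against 85.2 in progenitors. The exons were 13.4-fold and 13.3-fold lower, so the fall was of about the same size at both positions. The erythroblast value of exon 4 lay close to 0.8, the lowest that the table lists, which limits the fall it could show. Exons of a gene share their libraries and are not replicates.

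Cd24a differed from the other members in the size of its change. It had a coverage of 78.2 in erythroblasts, against 154 in progenitors, which is 1.97-fold lower with a log2 difference of -0.97 and rank 736, so 14.2% of all genes were as low or lower. Its exon 1, which starts at 43299060 on chromosome 10, had 12.0 in erythroblasts, against 24.9 in progenitors. Exon 2, which starts at 43302410, had 66.2 in erythroblasts, against 129 in progenitors. As plain ratios the exons lay on either side of the 2-fold line, with 2.08-fold and 1.94-fold lower values. With the added 1 of the rule both were short of it, at -0.997 for exon 1 and -0.949 for exon 2. Erythroblast coverage of Cd24a was 48.8 times the lowest that its 2 exons could have been listed with, so the description of these genes as lost is not borne out for it.

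**Figure D1:**
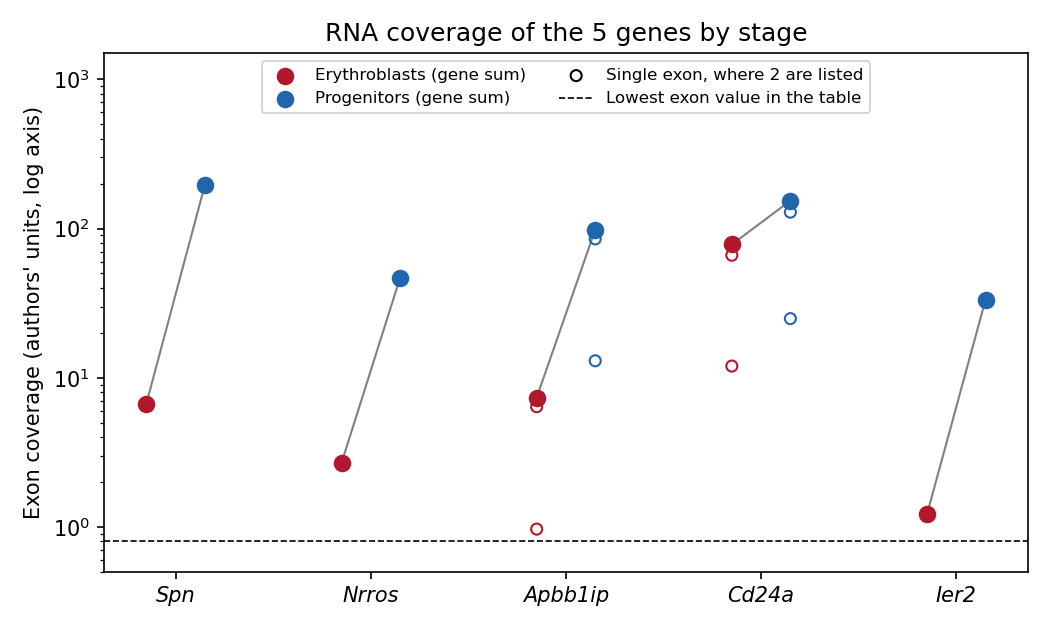
RNA coverage of each gene in erythroblasts (red) and progenitors (blue) on a log axis in the authors' units, with filled points for the sum over listed exons, open points for single exons where 2 are listed, and a dashed line at the lowest exon value in the table (0.8). Ier2 and exon 4 of Apbb1ip lie closest to the line in erythroblasts, and Cd24a has the smallest gap between the stages.

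The 4 genes that fell lie at the far low end of all genes, where few others are found. The 3 genes nearest to Spn in log2 difference, among 539 genes whose higher value was within 2-fold of its own, were Lyl1 (-4.96), a helix-loop-helix regulator in immature blood cells, Zfp36l2 (-5.08), which promotes mRNA decay, and Apbb1ip itself. For Apbb1ip they were the second transferrin receptor gene Tfr2 (-3.47), Riox1 (-3.75) and Zfp36l1 (-3.24), a relative of Zfp36l2. For Nrros they were Riox1, Tfr2 and Ier2, and for Ier2 they were Riox1, Nrros and Tfr2. Around Cd24a the nearest were Paxip1 (-0.97), Sfr1 (-0.96) and Farsa (-0.98), from 695 candidates. Likeness here is the closeness of 1 difference between 2 columns and says nothing of shared control. Of the 5 genes, Spn, Nrros and Ier2 rested on 1 listed exon, as did 29.9% of all genes and 34.2% of those that fell.

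**Figure D2:**
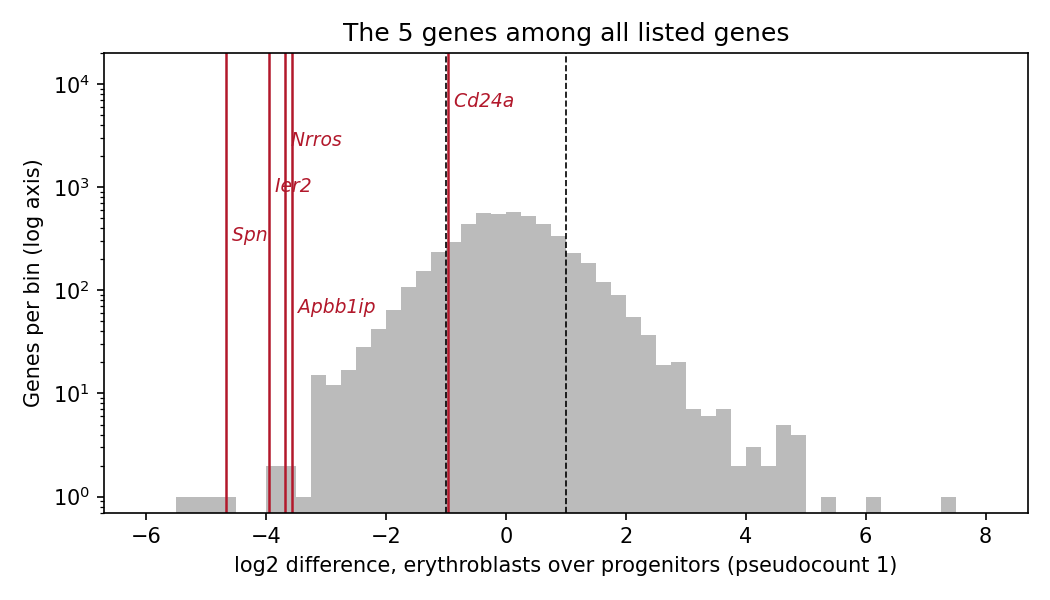
Number of genes per bin of log2 difference (erythroblasts over progenitors, pseudocount 1) for all 5194 listed genes on a log axis. Red lines mark the 5 genes and dashed lines mark 2-fold. Spn, Ier2, Nrros and Apbb1ip lie between -4.68 and -3.57, and Cd24a lies beside the dashed line at -0.97.

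Partners and relatives of the 5 genes were examined as 7 lists. Of 66 other genes on these lists that the table gives, 22 fell (33.3%) and 8 rose (12.1%), with a median log2 difference of -0.38, against 13.2% and 15.3% and a median of 0.03 over all genes. The lists were chosen with earlier results of these data known. Genes too low in erythroblasts to be listed are missing from these counts.

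Immediate early and early response genes had the lowest median. Beside Ier2, 12 of the list were in the table, of which 6 fell, 1 rose and 5 did neither, with a median of -1.08. Zfp36l2 had 5.31 in erythroblasts, against 212 in progenitors, and Zfp36l1 had 10.9 in erythroblasts, against 112 in progenitors. Egr1, a zinc finger factor induced by serum, had 14.2 in erythroblasts, against 83.7 in progenitors, and the growth factor-induced Myc had 55.9 in erythroblasts, against 307 in progenitors. The list did not move in 1 direction. Ppp1r15a, the stress-induced phosphatase subunit GADD34, rose to 697 in erythroblasts, against 39.6 in progenitors, a log2 difference of 4.11. Junb, a partner of Fos, had 19.1 in erythroblasts and 10.4 in progenitors, and Mcl1, a survival gene, had 16.2 in erythroblasts and 23.1 in progenitors, both under the rule.

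Genes of the route from growth signals to immediate early genes varied less. Of 18 listed genes 5 fell, 2 rose and 11 did neither, with a median of -0.12. Srf, the serum response factor, had 16.0 in erythroblasts, against 41.0 in progenitors, a log2 difference of -1.31, and its partner gene Elk4 had 5.002 in erythroblasts, against 14.7 in progenitors (-1.38). The list also counted Hsf1, the heat shock factor, among the 5 that fell. Hsf1 had the lowest difference of the list (-1.53), with 10.001 in erythroblasts and 30.7 in progenitors. The kinase genes Map2k1 (45.2 in erythroblasts, 16.7 in progenitors) and Map2k2 (111 in erythroblasts, 43.3 in progenitors) rose, by log2 differences of 1.38 and 1.34. Mapk3, a kinase they act on, had 26.3 in erythroblasts and 28.9 in progenitors, and the phosphatase gene Ppp2ca had 50.9 in erythroblasts and 32.4 in progenitors, both under the rule.

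Leukocyte surface and adhesion genes apart from Spn and Cd24a were split. Of 8 listed genes 2 fell, 1 rose and 5 did neither, with a median of -0.19. The tetraspanin gene Cd81 had 9.75 in erythroblasts, against 25.2 in progenitors, and the integrin gene Itga4 had 2.45 in erythroblasts, against 7.33 in progenitors. The erythroblast value of Itga4 lay close to the lowest that its 3 exons could have been listed with. Cd47, which shields cells from phagocytes, rose to 13.8 in erythroblasts, against 5.94 in progenitors. Bsg, the basigin gene, had 218 in erythroblasts and 117 in progenitors, and Cd164, a sialomucin like CD43, had 14.0 in erythroblasts and 25.7 in progenitors, both under the rule. The other 32 genes of this list of 42 were not in the table and were not analysed here. A gene with no exon at 0.8 or more in both stages is left out, so the split holds for the listed genes only.

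Integrin activation genes around Apbb1ip also went in opposite directions. Of 12 others 5 fell, 3 rose and 4 did neither, with a median of -0.13. Fyb, an adaptor that binds RIAM and related proteins in leukocytes, had 15.9 in erythroblasts, against 52.2 in progenitors (-1.66), and the actin regulator Vasp had 54.6 in erythroblasts, against 149 in progenitors (-1.43). Fermt3, which encodes kindlin-3, the blood cell activator of integrins, rose to 331 in erythroblasts, against 110 in progenitors, over 14 listed exons. Rapgef6, an exchange factor that loads Rap1, rose to 10.8 in erythroblasts, against 3.44 in progenitors. Tln1, the talin gene that RIAM serves, had 295 in erythroblasts and 429 in progenitors, under the rule, over 54 listed exons.

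The cortex linkers that bind CD43 changed unequally. Of 6 listed genes 2 fell and 1 rose. Ezr, the ezrin gene, rose to 347 in erythroblasts, against 63.4 in progenitors (2.43). Msn, the moesin gene, fell to 43.9 in erythroblasts, against 130 in progenitors (-1.55), and Rdx, the radixin gene, had 69.7 in erythroblasts and 52.5 in progenitors. Slc9a3r1, an adaptor of these linkers, had 2.40 in erythroblasts, against 15.4 in progenitors (-2.27).

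Around Nrros, 6 genes of TGF-beta signalling and the phagocyte oxidase were in the table, of which 1 fell and none rose, with 5 under the rule. That 1 was Cyba, the oxidase subunit p22phox, with 2.84 in erythroblasts, against 29.3 in progenitors, a log2 difference of -2.98 on 1 exon. Tgfb1, whose latent form LRRC33 holds, had 201 in erythroblasts and 284 in progenitors, and Rac2, a GTPase of the oxidase, had 235 in erythroblasts and 317 in progenitors. Of 4 genes in the table that serve the lipid anchor of CD24 only Pigt fell, with 27.3 in erythroblasts, against 73.1 in progenitors. Its partners Gpaa1 (21.2 in erythroblasts, 33.3 in progenitors) and Pigs (24.7 in erythroblasts, 28.4 in progenitors) were under the rule.

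**Figure D3:**
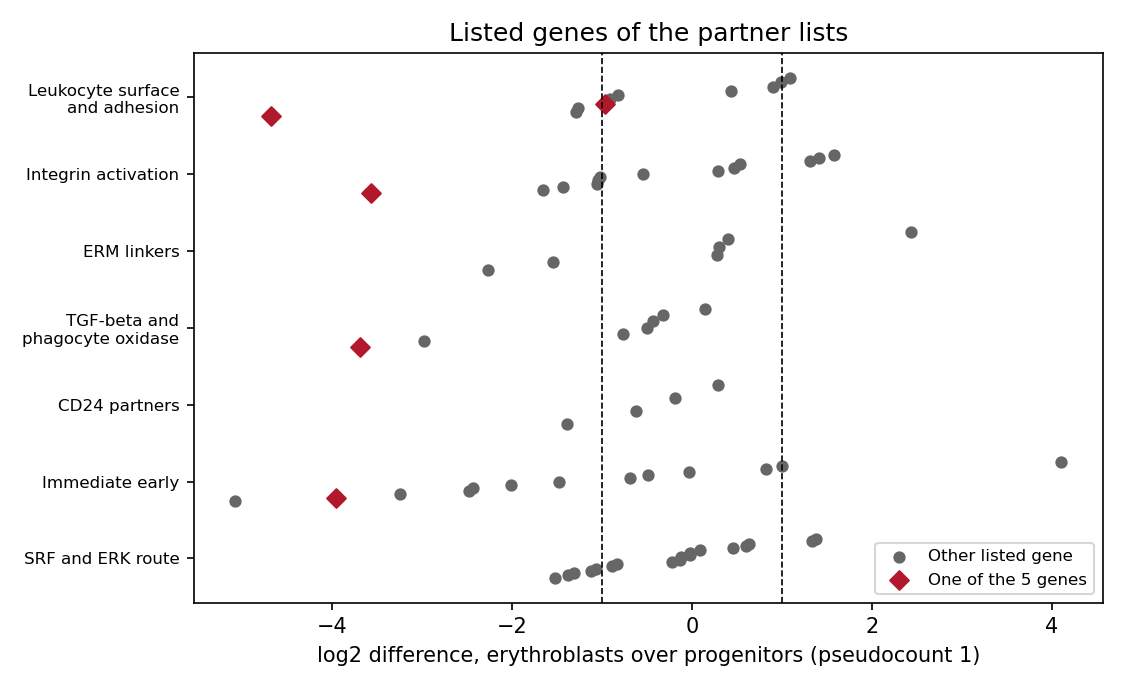
log2 difference (erythroblasts over progenitors, pseudocount 1) of each gene of the 7 lists that the table gives, with red diamonds for the 5 genes and dashed lines at 2-fold. Immediate early genes run from -5.08 for Zfp36l2 to 4.11 for Ppp1r15a, and genes of the other lists lie on both sides of 0.

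Markers of other cells give little to set beside these falls. No gene of the macrophage (12 genes), granulocyte and mast cell (12), lymphoid (13), hepatocyte (9) or endothelial and stromal (9) lists was in the table. Of the megakaryocyte list 1 of 9 was, Gp1ba, with 31.6 in erythroblasts and 9.35 in progenitors, and of the stem and progenitor list 1 of 13, Runx1, with 31.1 in erythroblasts and 50.3 in progenitors. Of 15 erythroid genes 8 items were in the table, of which 6 rose and 2 did neither. Those 2 were Epor, with 70.5 in erythroblasts and 58.2 in progenitors, and Klf1, with 145 in erythroblasts and 73.9 in progenitors. The list summed to 12510 in erythroblasts and 807 in progenitors. Among those that rose, alpha-globin had 4043 in erythroblasts, against 159 in progenitors. Gata1 had 2845 in erythroblasts, against 42.1 in progenitors, and Sptb had 2756 in erythroblasts, against 353 in progenitors. Markers missing from the table do not show that such cells were absent, and the part of other blood cells in the falls was not tested.

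EKLF peaks near the 5 genes were examined as a measure that did not choose them. All 5 genes had at least 1 erythroblast peak within 50 kb of a listed exon start, as did 88% of all genes. Within 5 kb of a listed exon start Cd24a and Ier2 alone had one, as did 45.9% of all genes. Distances to unlisted exons and to start sites of the genes were not measured. Only Cd24a and Ier2 had a progenitor peak within 50 kb, and over all genes 70.1% had one. Within 5 kb Cd24a alone had a progenitor peak, as did 30.7% of all genes. Spn, Nrros and Apbb1ip therefore had erythroblast peaks and no progenitor peak, a pattern of 20.5% of all genes. The lists differ in length, with 19353 peaks in erythroblasts and 7358 in progenitors. With the erythroblast list cut to its 7358 highest-ranked peaks, Spn and Apbb1ip had no erythroblast peak within 50 kb either and Nrros had 1, and 60.6% of all genes had such a peak. Enrichment and rank come from the authors and are set against other peaks of the same list.

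Cd24a had the strongest peak over a member's own exon. In erythroblasts the region on chromosome 10 from 43297524 to 43300148 was a peak over the start of exon 1 with an enrichment of 18.4, above 93.9% of that list, and a -log10 p of 34.1 (rank 891). The progenitor peak from 43297732 to 43299467 covered it as well, with an enrichment of 5.43 at percentile 19.1 of its own list. Exon starts inside an erythroblast peak were found in 23.4% of all genes. A further erythroblast peak from 43303961 to 43305625, 1.55 kb past the start of exon 2, had an enrichment of 12.4 and was not shared. In all Cd24a had 5 erythroblast and 2 progenitor peaks within 50 kb, and the other shared pair, with an enrichment of 17.4 in erythroblasts and 10.9 in progenitors, lay nearer to Mtres1.

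Ier2 had 7 erythroblast and 3 progenitor peaks within 50 kb, the most of the 5 genes, but 4 and 2 of them lay nearer to the genes Trmt1 or Lyl1. In erythroblasts the region from 87185236 to 87187020 on chromosome 8 was a peak over the exon start with an enrichment of 6.88, at percentile 15.6, and another from 87187211 to 87189128 lay 1.23 kb upstream with 9.46. Neither overlapped a progenitor peak. A shared peak lay downstream, from 87161980 to 87163811 in erythroblasts with an enrichment of 18.1 and from 87161960 to 87164523 in progenitors with 10.9, at percentiles 93.1 and 87.5 of their lists. The most enriched erythroblast peak in the window, at 22.2, lay 0.37 kb from a listed exon of Lyl1.

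Spn, Nrros and Apbb1ip had no peak over a listed exon start. Their nearest peaks lay farther from a listed exon start than those of Cd24a and Ier2. At Spn the nearest erythroblast peak, on chromosome 7 from 134288827 to 134289719, lay 9.17 kb upstream of the exon start with an enrichment of 9.09, at percentile 46.9. At Nrros a peak on chromosome 16 from 32148305 to 32152678 lay 5.19 kb upstream with an enrichment of 6.40, at percentile 9.64. The most enriched near Nrros, from 32099348 to 32100348, had 11.8, at percentile 72.3, and lay 42.8 kb downstream. Another near Nrros, from 32164796 to 32166299, had 8.27, at percentile 34.7, and lay 21.7 kb upstream. At Apbb1ip the nearest lay 20.3 kb downstream of exon 14, on chromosome 2 from 22750666 to 22751782, with an enrichment of 7.15, at percentile 18.6. The other, from 22629276 to 22630499, had 7.57 and lay 48.3 kb upstream of exon 4. No peak of these 3 genes was in the progenitor list, whose nearest lay 71.2 kb from Spn, 62.9 kb from Nrros and 68.5 kb from Apbb1ip. Distances run to exon starts as named in the table, which for Spn, Nrros and Ier2 on the reverse strand are the 3' ends of the exons. Start sites on build mm9 were not used here, so whether a peak lies at the start site of a gene was not tested.

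**Figure D4:**
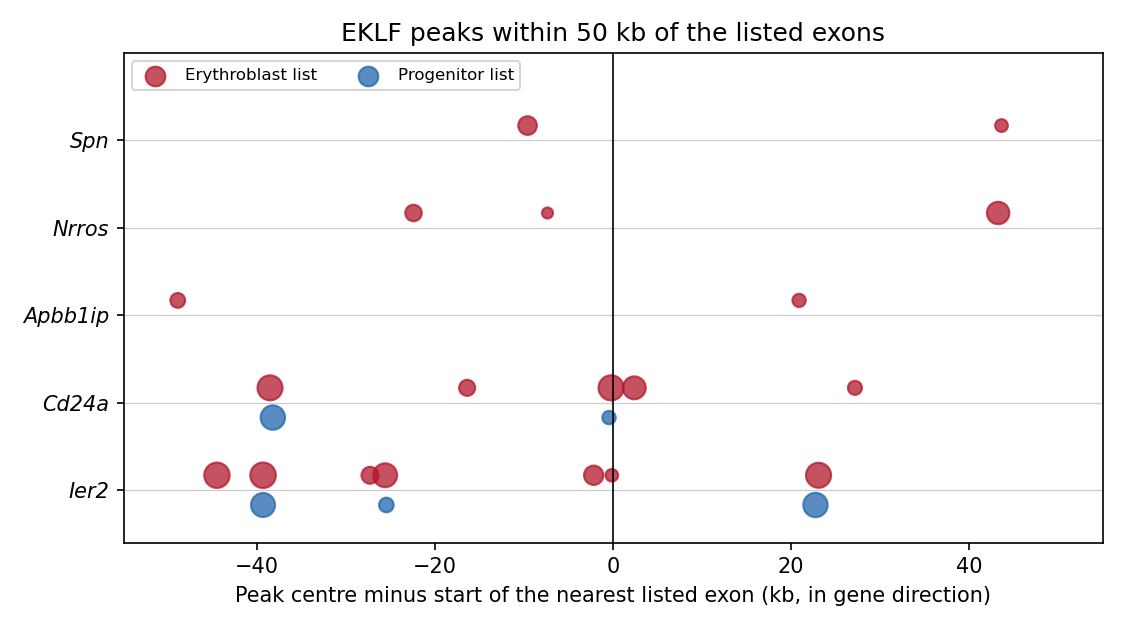
EKLF peaks within 50 kb of the listed exons, placed by the distance of the peak centre from the start of the nearest listed exon (kb, in the direction of the gene), erythroblast list in red above and progenitor list in blue below, with larger points for peaks more enriched within their own list. Only Cd24a and Ier2 have blue points, and only they have points close to 0.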

How the data were processed

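Per the submitters' processing notes, reads were placed on build mm9. No aligner, counter or peak caller is named there. Values of the deposited table, which is called RPKM, are whole multiples of 1 step per column (100% within 0.01, with 2151 steps per unit in erythroblasts and 1835 in progenitors), so the authors' values are read as a coverage signal per coding exon that is not divided by exon length. Columns sum to 333353 in erythroblasts and 312559 in progenitors. Whether the erythroblast column pools its 2 libraries is not stated in the sources. No row was below 0.8 in either column. In the deposited peak lists, which were called on pooled samples per the file names, column 7 is taken for the authors' fold enrichment and column 8 as their -log10 p.

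Transcript accessions were matched to symbols through RefSeq on GRCm38.p6 (6772 of 6853 matched). For each gene the transcript with the most listed exons was summed, which gave 5194 genes with at least 1 in the higher column. The planned rule of at least 2-fold was used without a test, since there is 1 column a stage. Peaks count where they lie within 50 kb of a listed exon start, and are shared where they overlap by at least 1 bp. Named genes were the 5 members, up to 4 past the rule and up to 2 of the best covered others per list, and the 3 genes nearest in difference per member. Not all that this rule takes in is printed, and Myc, Srf and Mapk3 lie outside it and were named after their values were seen. The members and lists were chosen with earlier results of these data known. Steps were tested on simulated data. Python 3.11.15, pandas 2.3.3, numpy 2.4.6 and matplotlib 3.10.9 were used. Alternatives were other pseudocounts, gene summaries, scalings, filters, windows, peak sets and overlaps.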

Additional observations from a re-analysis of the deposited data

How the results depend on the processing

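Under each of the 8 alternatives for RNA, Spn, Ier2, Nrros and Apbb1ip were at least 2-fold lower, and with the reported value the log2 difference ran from -4.87 to -4.10 for Spn, -4.78 to -2.62 for Ier2, -4.12 to -2.75 for Nrros, -3.74 to -3.06 for Apbb1ip and -1.03 to -0.93 for Cd24a. Cd24a crossed the line under 2 of them, with -1.01 by the median of exon log2 ratios and -1.03 with equal totals without globins. The lowest size for Ier2 and Nrros came with a pseudocount of 5 and the highest with none, in the exon median. With a pseudocount of 5, 411 of all genes fell and 512 rose, in place of 685 and 794. Of the 66 other list genes 17 to 23 fell over these alternatives. Counts of peaks follow the window and the peaks kept. In place of 19 erythroblast and 5 progenitor peaks within 50 kb, there were 4 and 1 within 5 kb, 6 and 1 within 10 kb, and 10 progenitor peaks within 100 kb, where all 5 genes had a progenitor peak. With the better-enriched 50% of each list 9 erythroblast and 3 progenitor peaks were left, and Spn and Apbb1ip had none. With the erythroblast list cut to the length of the progenitor list, an alternative chosen after seeing the data, 6 were left. Sharing was the same with an overlap of 50% of each peak. No paired analysis was possible because each stage has 1 column and 1 peak list. No replicate could be left out for the same reason.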

Other observations

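Listed genes within 200 kb of the members were looked at after the data were seen. Over all genes 13.2% fell and 15.3% rose. Around Ier2, 4 of 8 neighbours fell and none rose. With so few genes nothing is read from such counts. Nacc1, 10.96 kb away, had 28.3 in erythroblasts, against 70.2 in progenitors. Trmt1, a tRNA methyltransferase gene 27.6 kb away, had 5.14 in erythroblasts, against 18.3 in progenitors. Lyl1, 40.6 kb away, had 3.98 in erythroblasts, against 154 in progenitors, and Calr, the calreticulin gene, had 119 in erythroblasts, against 275 in progenitors.

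Around Spn, 4 of 11 neighbours fell and none rose, beside 13.2% and 15.3% over all genes, and nothing is read from so few. Maz, a zinc finger gene, had 83.8 in erythroblasts, against 218 in progenitors, and AI467606 had 10.7 in erythroblasts, against 35.2 in progenitors. An erythroblast peak covered the listed exon start of AI467606. Around Nrros none of 6 neighbours fell, and Wdr53 and Rnf168, a ubiquitin ligase gene, rose, with Rnf168 at 7.58 in erythroblasts, against 1.81 in progenitors. The only listed neighbour of Apbb1ip, the actin regulator gene Abi1, rose to 51.2 in erythroblasts, against 15.7 in progenitors. The only one of Cd24a, Mtres1, had 1.68 in erythroblasts and 0.96 in progenitors, under the rule.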
